A study of Mus musculus with 18 samples.

Results

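The change from week 12 to week 28 after birth was followed in the cerebellum of ATXN1[30Q]D776/Cck-/- mice, called transgenic below. It rests on 6 of the 18 libraries of the series, 3 at week 12 and 3 at week 28. These mice are of the FVB strain, carry by their label a deletion of Cck, which encodes the neuropeptide cholecystokinin, and have a human ataxin-1 transgene with a tract of 30 glutamines and an aspartate in place of a serine that is otherwise phosphorylated. The comparison group, Cck-/- mice of the same strain without the transgene, had 3 libraries at each of the same ages, and both genotypes also had 3 libraries at week 5. Every library is thus labelled Cck-/-, and no group labelled with intact Cck was analysed here. The labels state neither the promoter of the transgene nor the sex of the animals, nor whether replicates within a group were different animals, so the p-values measure the spread between these samples, which may be technical. As background, lines of this name are known to express ataxin-1 from a Purkinje cell regulatory element of the Pcp2 gene. Values were FPKM, that is fragment counts scaled by transcript length and by library size. Of 22783 genes, 13487 reached 1 FPKM in 3 or more libraries and were tested.

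Purkinje cells are the large inhibitory neurons whose axons are the sole output of the cerebellar cortex. They integrate climbing fibre and granule cell input through calcium release, metabotropic glutamate receptors and a set of calcium and potassium channels, and many of their defining transcripts encode parts of this machinery. Spinocerebellar ataxia type 1 is caused by mutant ataxin-1, which acts in the nucleus with the repressor Capicua and affects these neurons early. Bergmann glia, whose fibres surround the Purkinje cell dendrites, and microglia, the resident phagocytes, are known to react when the neurons are affected. The series concerns signalling of the cholecystokinin 1 receptor and of mTORC1, a kinase complex that sets growth and protein synthesis, in this setting.

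The cerebellar label was checked against markers. Purkinje and granule neuron genes were high in all 6 libraries, and the mean log2 level of 9 midbrain and forebrain genes was 3.13 to 3.21 at week 12 and 3.36 to 3.82 at week 28. All 3 week 28 libraries thus lay above week 12 for these markers of other regions, although 0 of the 9 genes were called by limma, and the part of such tissue in the changes below was not tested. In Cck-/- libraries the list stood at 3.03 to 3.69 and 3.19 to 3.74. Sums of FPKM ran from 389248 to 441509 per library over all 18, and the log2 values of libraries correlated at 0.989 to 0.994 within the 2 transgenic groups and at 0.977 to 0.989 between them. FPKM hold no read counts, so the depth is unknown and no counting interval is given. Several libraries stood apart. Week 12 replicate 2 held both the female transcript Xist (58.8 FPKM) and the Y-linked Ddx3y (2.75), and week 28 replicate 1 held 3.23 of Xist with 27.2 of Ddx3y. Week 28 replicate 3 had 51.8 FPKM of the choroid plexus transcript Ttr against 892 to 2669 in the other 5, had 0.280 of Ddx3y beside 91.4 of Xist, and lay nearest to week 12 for most of the genes described below. A single small RNA gene, AF357426, took 49462 FPKM in week 28 replicate 2 and was at 0 in the other 5 libraries.

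Between weeks 12 and 28 Purkinje cell transcripts fell and transcripts of microglia and complement rose in the transgenic cerebellum. The microglia and complement lists also had median changes above 0 without the transgene. These were 0.34 for homeostatic microglia, 0.19 for activated microglia and 0.44 for complement. Many immediate early genes fell in both genotypes. With limma on log2(FPKM + 1), 3216 genes (23.8% of those tested) passed an adjusted p of 0.05, and such genes are named as called. Of these, 1370 (10.2%) were higher and 1846 (13.7%) lower at week 28. Most changes were small: the median absolute log2 change of the called genes was 0.28, and only 225 of the higher and 194 of the lower genes moved by more than 0.5. At more than 1, that is a doubling or halving, there were 24 in each direction. Fold changes on this scale understate the change of genes with low FPKM. In bulk tissue, fewer cells of a type and less RNA per cell cannot be told apart.

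The count depended on the libraries and the fit. Leaving out 1 transgenic library at a time gave 1951 genes without week 12 replicate 2, 1992 without week 12 replicate 3, 1773 without week 28 replicate 1 and 1756 without week 28 replicate 2, against 3453 without week 12 replicate 1 and 3546 without week 28 replicate 3. Without the libraries that held both Xist and Y-linked transcripts 984 genes were called, and without the 3 transgenic libraries of these ages that stood apart, a choice made after seeing the data, 1402. The 37 gene lists described below held 231 called genes. Of these 130 stayed called whichever of the 6 transgenic libraries was left out, and 101 were lost without at least 1. The number lost was 16, 62 and 76 without week 12 replicates 1, 2 and 3 and 81, 86 and 10 without week 28 replicates 1, 2 and 3.

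In Cck-/- cerebellum of the same ages, 1301 genes (9.65%) were called, 543 higher (4.03%) and 758 lower (5.62%). Of them, 848 were also called in the transgenic libraries, 340 higher and 508 lower in both, with no gene in opposite directions. The shared genes made up 65.2% of the Cck-/- list and 26.4% of the transgenic list. Over all genes tested the 2 changes correlated at r = 0.604 and rho = 0.594, across genes, which are not independent replicates, and with no library in common. A test of the difference between the 2 changes (the interaction of genotype and age, limma) called 0 genes, with 1365 (10.1%) at an unadjusted p under 0.05 and a smallest adjusted p of 0.354. It called 149 genes, 18 higher and 131 lower, when the transgenic week 28 replicate 3 was left out, which lay nearest to week 12 for many of these genes so that a gain in calls follows from the choice, and 2344 when libraries were weighted by their agreement with their group. The genes below that moved in the transgenic and not in the Cck-/- libraries are therefore given with the interaction beside them, and none of them passed its adjusted threshold with all 18 libraries.

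**Figure D1:**
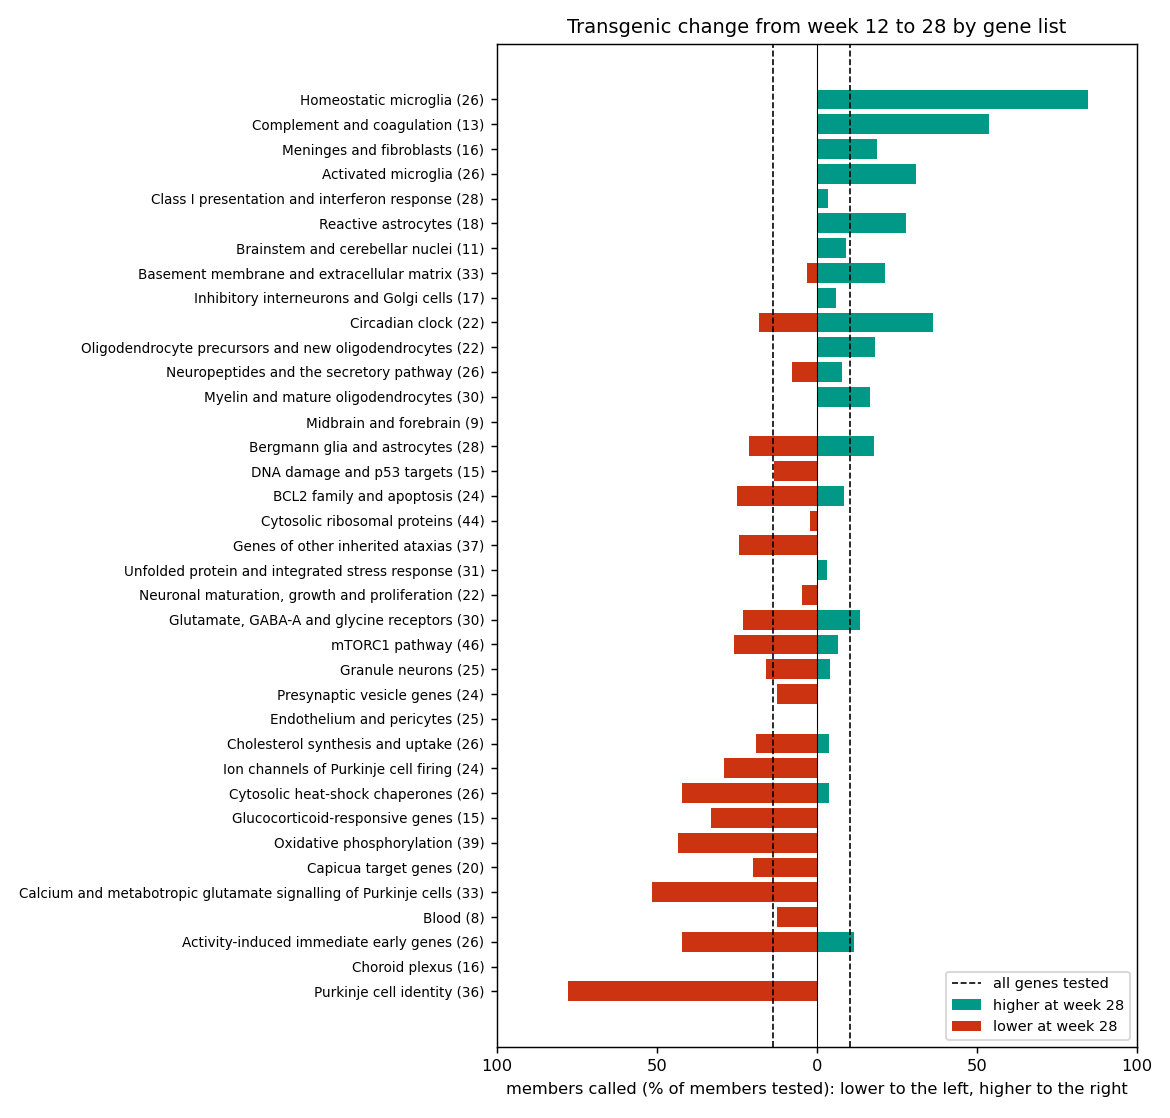
Share of the tested members of 37 gene lists (number tested in brackets) that limma called lower (bars to the left) or higher (bars to the right) at week 28 than at week 12 in transgenic cerebellum, ordered by the median log2 change. The dashed lines mark the shares over all genes tested, 13.7% lower and 10.2% higher; Purkinje cell identity reached 77.8% lower and homeostatic microglia 84.6% higher.

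Most genes that define Purkinje cells fell between the 2 ages. Of 36 genes of Purkinje cell identity, 28 were called lower and 0 higher in the transgenic libraries, 77.8% against 13.7% over all genes, and the median log2 change was -0.61 against -0.0031 over all genes. In Cck-/- libraries 0 of the 36 were called in either direction, with a median of -0.11. Of the 36, 26 had an unadjusted interaction p under 0.05 (limma), against 10.1% of all genes. Cck-/- values at week 28 lay wholly below week 12 for 10 of the 36, against 16.4% of all genes tested. The mean log2 level of the list was 5.68, 5.60 and 5.81 in the 3 week 12 libraries and 5.04, 4.83 and 5.41 in the 3 week 28 libraries. The groups did not overlap, and both lay below the Cck-/- libraries of these ages, which ranged from 6.08 to 6.26. At week 5 the transgenic libraries stood at 5.70 to 5.88, a range that overlapped with week 12.

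Pcp2, which encodes a modulator of G proteins nearly confined to Purkinje cells, was measured at 596, 726 and 658 FPKM at week 12, falling to 293, 232 and 490 by week 28. Each week 28 library was below every week 12 library, with replicate 3 the least reduced. Pcp2 fell by 1.03 on the log2 scale (SE 0.18, limma adjusted p = 0.00157), while the Cck-/- means were 698 FPKM and 718 FPKM (0.04, adjusted p = 0.915), and the interaction was -1.07 with an unadjusted p of 0.00085. Car8, a binding partner of the inositol trisphosphate receptor, stood at 185, 174 and 244 FPKM and then at 87.8, 70.1 and 133. All 3 later values were below the earlier ones, a fall of 1.08 (SE 0.18, limma adjusted p = 0.0012). Its Cck-/- means, 396 and 373 FPKM, differed by -0.08 on the log2 scale.

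Rgs8, a regulator that shortens G protein signals, stood at 186, 158 and 187 FPKM and then at 84.5, 58.3 and 114. Its groups did not overlap, and it fell by 1.09 (SE 0.17, limma adjusted p = 0.000727). The Cck-/- means of Rgs8 were 276 and 215 FPKM, a change of -0.36 that was not called (limma adjusted p = 0.19). Icmt, a methyltransferase of prenylated proteins, went from 66.9, 76.2 and 88.7 FPKM to 36.8, 32.5 and 49.2. Here too the groups were separate, and the fall was 0.96 (SE 0.13, limma adjusted p = 0.000275). Calb1, the calcium buffer calbindin that is a standard marker of these neurons, went from 256, 267 and 306 FPKM to 131, 104 and 205 and fell by 0.96. Hes3, a transcriptional repressor that no list held, went from 17.3, 21.2 and 23.1 FPKM to 9.02, 7.22 and 14.1 and fell by 0.99. In each of these genes week 28 replicate 3 kept the highest value of its group.

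Further members called lower included Gng13 and Arhgef33, Ppp1r17 (an inhibitor of protein phosphatases), Pcp4 (a calmodulin-binding peptide), Slc1a6 (a glutamate transporter of Purkinje cells), Doc2b, Stk17b, Sycp1, Fam107b, Bcl11a, Nrk, Kcnma1, Pde5a, Dner (a Notch ligand), Cacng7, Id2, Lhx5 and Plcb4. The smallest of these changes was -0.23 for Plcb4. The 8 members that were not called were Pvalb, Rora, Foxp2, Ebf1, Lhx1, Aldoc, Plcb3 and Shank1. Pvalb, a calcium buffer that cerebellar interneurons share, differed by -0.46 with an adjusted p of 0.0569, and Rora, a nuclear receptor needed for Purkinje cell development, by -0.16 with an adjusted p of 0.26 (limma). Aldoc, the antigen that marks one class of Purkinje cell stripes and is also high in astrocytes, ranged from 989 to 1150.3 FPKM at week 12 and from 832 to 1103 at week 28, and these ranges overlapped.

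Of the 36 Purkinje genes, 25 had week 28 values wholly below week 12, against 19.8% of all genes tested. These 25 were all among the 28 called genes. Groups without overlap were common among called genes, at 2995 of all 3216. In 27 of the 28 called Purkinje genes week 28 replicate 3 was the library nearest to week 12. The same library had the low choroid plexus level, and without it 33 of the 36 genes were called lower. Leaving out the least reduced library had to enlarge the fall, so that count supports nothing further. Fitting only the 2 transgenic groups, with fewer samples to estimate the spread, left 12 called.

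**Figure D2:**
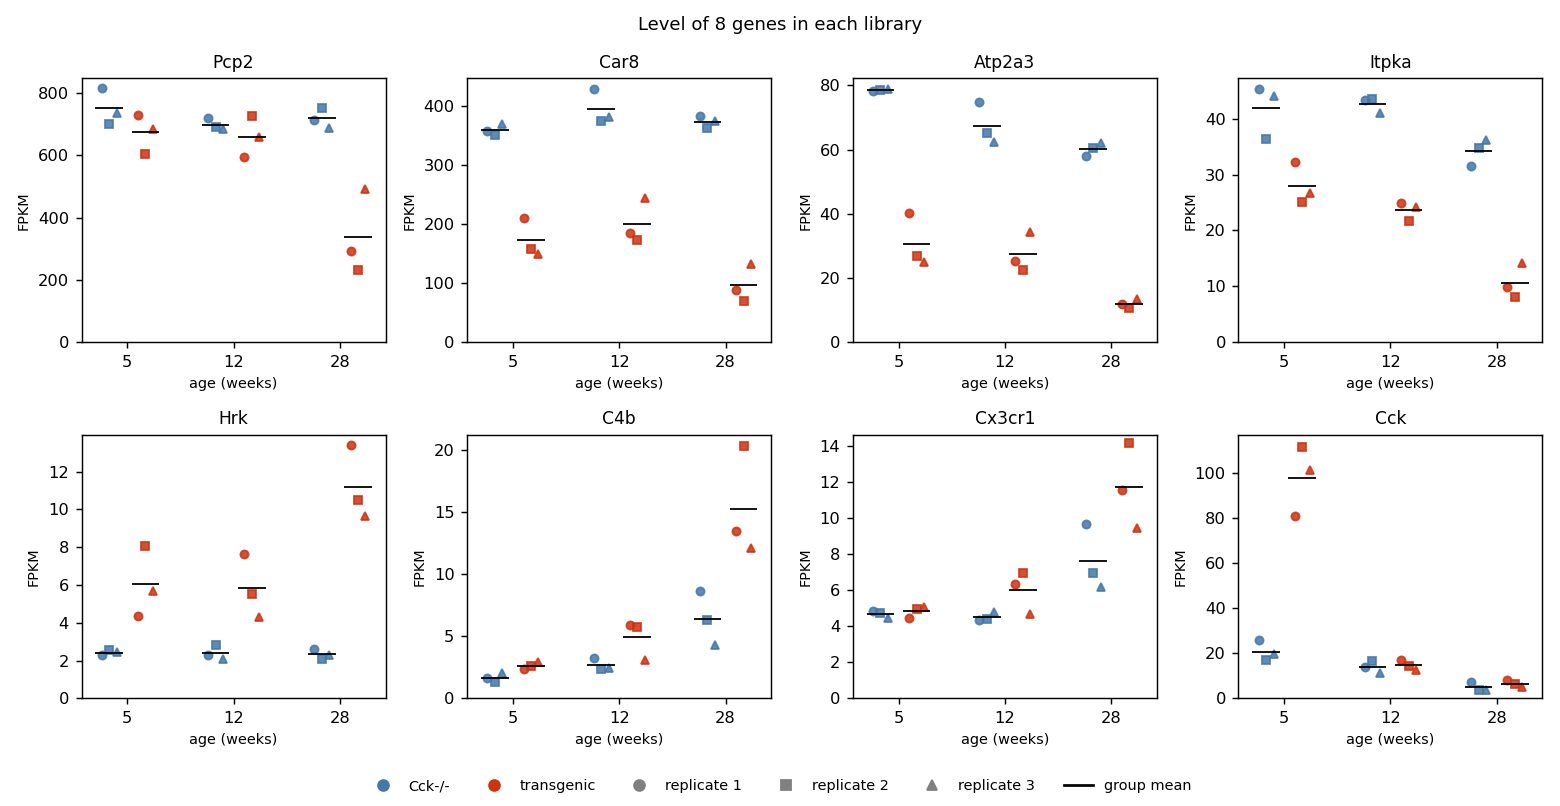
FPKM of 8 genes in each of the 18 libraries by age (x axis, weeks) and genotype (red transgenic, blue Cck-/-), with the replicate shown by the marker and the group mean by a black line; each panel has its own y axis starting at 0. Pcp2 is at 596 to 726 in transgenic libraries at week 12 and at 232 to 490 at week 28, while Cck falls with age in both genotypes.

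The first promoters shown are those of Pcp2 and Homer3, called Purkinje genes picked because their promoters hold the letters AGGTCA. Rora binds DNA at these letters, the half-site of the ROR receptors. They are RefSeq windows on GRCm38.p6 from 250 bases before to 50 bases after the first listed transcript start, printed 5' to 3' on the gene's strand, for Pcp2 chr8:3625498-3625797 (minus strand, the first of 4 listed starts) and for Homer3 chr8:70282749-70283048 (plus strand). Capitals mark AGGTCA or its reverse complement.
Pcp2: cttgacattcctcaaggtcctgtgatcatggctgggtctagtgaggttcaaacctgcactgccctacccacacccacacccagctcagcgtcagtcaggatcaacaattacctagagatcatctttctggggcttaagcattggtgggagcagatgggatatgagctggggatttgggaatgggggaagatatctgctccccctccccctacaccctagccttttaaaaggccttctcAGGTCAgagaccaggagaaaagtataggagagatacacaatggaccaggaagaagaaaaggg
Homer3: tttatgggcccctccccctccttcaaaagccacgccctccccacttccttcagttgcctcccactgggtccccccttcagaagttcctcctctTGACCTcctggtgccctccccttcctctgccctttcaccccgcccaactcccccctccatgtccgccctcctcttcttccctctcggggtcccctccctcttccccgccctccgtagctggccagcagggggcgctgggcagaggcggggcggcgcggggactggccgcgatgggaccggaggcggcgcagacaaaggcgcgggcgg
Of the 28 called Purkinje genes 20 had a listed promoter, and 5 of these (25.0%), Dner, Pcp2, Homer3, Pcp4 and Arhgef33, held the letters on either strand, against 16.3% of 32851 promoters of all genes. The others, such as Itpka, Rgs8, Icmt and Slc1a6, did not hold them. Each called gene counts once, by its first listed promoter, whereas the 32851 promoters belong to 27025 genes. A match of letters is a description and not a binding site.

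The calcium and metabotropic glutamate pathway of Purkinje cells followed the identity genes, several of which it shares. Of 33 genes 17 (51.5%, against 13.7% of all genes) were called lower and 0 higher, with a median log2 change of -0.23. In Cck-/- libraries 0 were called, against 4.03% higher and 5.62% lower over all genes. Itpka, the kinase that phosphorylates inositol trisphosphate, read 24.9, 21.6 and 24.2 FPKM at week 12 against 9.88, 8.05 and 14.1 at week 28. The groups were clear of each other, and Itpka fell by 1.10 (SE 0.14, limma adjusted p = 0.000268). The Cck-/- means of Itpka were 42.7 and 34.2 FPKM, a change of -0.31 that was not called (limma adjusted p = 0.178). Atp2a3, a calcium pump of the endoplasmic reticulum, stood at 25.3, 22.4 and 34.3 FPKM and then at 12.0, 10.6 and 13.6, a fall of 1.10 (SE 0.16, adjusted p = 0.000488). It was already far below Cck-/- at week 5, where the transgenic mean was 30.7 FPKM. The Cck-/- means at weeks 12 and 28 were 67.4 and 60.2.

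Homer3, the scaffold that ties metabotropic glutamate receptors to the calcium store, went from 78.9, 80.5 and 94.0 FPKM to 44.4, 35.2 and 59.2, with no overlap, and fell by 0.88 (SE 0.13, limma adjusted p = 0.000503). Stac, an adaptor of calcium channels, went from 5.11, 4.14 and 4.60 FPKM to 2.24, 1.60 and 2.90 and fell by 0.81. Itpr1, the inositol trisphosphate receptor itself, fell by 0.86, Inpp5a, a phosphatase of inositol trisphosphate, by 0.77 and Casq2, a calcium store protein, by 0.68. Inpp4a, Orai2, Dgkz, Prkg1, Atp2b2, Plcb4, Calm2 and Stim1 were among the others called lower. The G protein genes Gnaq and Gna11 and the kinases Camk2a, Camk2b and Camk4 were not called. The list's count was 12 without week 12 replicate 3 and 12 without week 28 replicate 1, and 9 without the libraries that held both Xist and Y-linked transcripts.

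Among 24 ion channel genes of Purkinje cell firing 7 were called lower (29.2%, against 13.7% of all genes) and 0 higher. Kcnip1, an auxiliary subunit of A-type potassium channels, went from 23.3, 21.8 and 23.2 FPKM to 11.5, 10.6 and 16.9, without overlap, and fell by 0.79 (SE 0.12, limma adjusted p = 0.00076). Cacna1g, the T-type calcium channel Cav3.1, went from 36.3, 31.6 and 36.1 FPKM to 20.02, 15.4 and 28.9 and fell by 0.71. Kcnma1, Kcnmb4, Kcnab1 and Cacnb4 were among the others. Cacna1a, the P/Q-type calcium channel gene of another inherited ataxia, and Kcna1, Kcnd3 and Scn8a were not called. The list's count was 2 without week 12 replicate 3, 3 without week 28 replicate 1 and 2 without week 28 replicate 2. Among 37 mouse counterparts of genes of other inherited ataxias 9 (24.3%) were called lower and 0 higher. The lower genes include Car8, Itpr1, Cacna1g and Elovl4, a fatty acid elongase. This count was 5 without week 12 replicate 3, 6 without week 28 replicate 1 and 5 without week 28 replicate 2. Mouse Atxn1 was not called, at 5.23, 4.91 and 6.08 FPKM against 5.50, 6.42 and 5.96 (0.12, SE 0.15, limma adjusted p = 0.578), and the transgene itself has no value here.

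Receptor genes were called in both directions, with a higher share near that of all genes. Of 30 glutamate, GABA-A and glycine receptor genes 4 were called higher and 7 lower. These shares were 13.3% and 23.3%, against 10.2% and 13.7% of all genes, and the list's median log2 change was -0.06. Gria1, Grik1, Gria4, Gabra6 and Gabrb2 were among the lower. Gria2 and Gabra3, subunits of AMPA and GABA-A receptors, were higher: Gabra3 went from 6.91, 7.13 and 8.13 FPKM to 9.37, 11.4 and 10.8, a rise of 0.46 (SE 0.08, limma adjusted p = 0.00166), and was also called in Cck-/- libraries (0.34). The 2 others called higher were Grin3a and Gabra2. The lower count was 3 without week 12 replicate 2 and 2 without week 12 replicate 3 or week 28 replicate 1 or 2, and the higher count was 1 without week 28 replicate 2.

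Granule neurons, the most numerous cells of the tissue, had few markers called. Of 25 genes 1 was called higher and 4 lower, 4.0% and 16.0% against 10.2% and 13.7% of all genes. The mean log2 level was 5.97 to 6.14 at week 12 and 5.91 to 5.94 at week 28, without overlap. Week 28 values lay wholly below week 12 for 11 of the 25, against 19.8% of all genes. The list's median was -0.08, and -0.20 in Cck-/- libraries, where 3 were called lower. Slc17a7, the vesicular glutamate transporter of these cells, differed by -0.46 (177, 204 and 221 FPKM against 144, 135 and 157), and its call was lost without any of 4 libraries, week 12 replicates 2 and 3 and week 28 replicates 1 and 2, with adjusted p from 0.0707 to 0.099 (limma). The list's count of lower genes fell to 1 without week 12 replicate 2, 0 without week 12 replicate 3, 1 without week 28 replicate 1, 0 without week 28 replicate 2 and 2 without week 28 replicate 3. Of 17 genes of inhibitory interneurons and Golgi cells only Tfap2b was called, higher by 0.29, and Gad1, Gad2 and Slc32a1, which make and load GABA, were not. Among 24 presynaptic vesicle genes 3 were called lower, Doc2b, Slc17a7 and Sv2b, a share of 12.5% that was near the 13.7% of all genes. The count was 1 without week 12 replicate 3 or week 28 replicate 1 or 2 (Sv2b adjusted p up to 0.227, limma). Endothelium and pericyte genes (25) and choroid plexus genes (16) had 0 called in either direction by limma. The choroid plexus list still differed widely between libraries, with mean log2 levels of 4.22, 2.96 and 3.57 at week 12 and 3.82, 3.44 and 1.50 at week 28.

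Bergmann glia and astrocyte genes split. Of 28 members 5 were called higher and 6 lower, 17.9% and 21.4% against 10.2% and 13.7% of all genes, and the median log2 change was 0.04. Those that fell include genes for which Bergmann glia are the main cerebellar source. Gdf10, a growth factor of Bergmann glia, went from 81.5, 86.3 and 72.4 FPKM to 40.7, 29.8 and 61.8, with no overlap, and fell by 0.90 (SE 0.18, limma adjusted p = 0.00321). Timp4, a metalloproteinase inhibitor, went from 147, 195 and 167 FPKM to 96.4, 86.9 and 127 and fell by 0.72. Slc1a3, the glutamate transporter GLAST, fell by 0.57, Fabp7, a fatty acid binding protein, by 0.63, Gpr37l1, a Bergmann glial receptor, by 0.45 and Kcnj10, a potassium channel of astrocytes, by 0.42. None of these except Fabp7 was called in Cck-/- libraries.

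Aqp4, the water channel of astrocyte end feet, moved the other way, from 162, 128 and 122 FPKM to 235, 257 and 173. All 3 week 28 values lay above week 12, and the rise was 0.68 (SE 0.13, limma adjusted p = 0.00275), with Cck-/- means of 119 and 107 FPKM and an unadjusted interaction p of 0.000398. Gja1, the gap junction protein of astrocytes, rose by 0.45, Slc1a2, the glutamate transporter GLT-1, by 0.33, Slc4a4, a bicarbonate transporter, by 0.26 and Agt, angiotensinogen, by 0.84. The calls of Gja1, Slc1a2 and Slc4a4 were lost without 3, 4 and 1 of the libraries, with adjusted p up to 0.0743, 0.0866 and 0.0703. The list's higher count was 3 without week 12 replicate 2, 3 without week 12 replicate 3, 3 without week 28 replicate 1 and 3 without week 28 replicate 2, while the lower count stayed at 6 or more in every leave-out of a single library. Without the libraries that held both Xist and Y-linked transcripts the counts were 0 and 3.

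Among 18 genes of reactive astrocytes 5 (27.8%, against 10.2% of all genes) were called higher and 0 lower: C4b, Gfap, Cd44, Aspg and Cp. Gfap, the intermediate filament by which reactive astrocytes are recognised, read 190, 116 and 92.4 FPKM at week 12 against 277, 324 and 180 at week 28. Replicate 3 of week 28 lay below replicate 1 of week 12, so the groups overlapped. Gfap rose by 0.99 (SE 0.30, limma adjusted p = 0.0258), and the call was lost without week 12 replicate 2 (0.0816), without week 12 replicate 3 (0.116), without week 28 replicate 1 (0.0857) and without week 28 replicate 2 (0.114). Aspg, an asparaginase induced in such astrocytes, went from 1.64, 1.27 and 1.27 FPKM to 2.67, 2.57 and 2.31 and rose by 0.56 with no such dependence. Vim and Serpina3n were not called. The list's count was 3 without week 12 replicate 2, 3 without week 12 replicate 3, 2 without week 28 replicate 1 and 2 without week 28 replicate 2.

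Microglial genes were the largest group of increases. Of 26 genes of homeostatic microglia 22 (84.6%, against 10.2% of all genes) were called higher and 0 lower, with a median log2 change of 0.58. In Cck-/- libraries 4 of the 26 (15.4%, against 4.03% of all genes) were called higher, with a median of 0.34. Only 1 of these 26 had an unadjusted interaction p under 0.05 (limma). The mean log2 level of the list was 2.88, 3.01 and 2.58 at week 12 and 3.41, 3.67 and 3.12 at week 28. All 3 later values were above all 3 earlier ones. Cck-/- libraries went from 2.51 to 2.58 at week 12 to between 2.74 and 3.19 at week 28, which also did not overlap.

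Cx3cr1, the fractalkine receptor that microglia use to sense neurons, stood at 6.37, 6.97 and 4.66 FPKM and then at 11.5, 14.1 and 9.45. The groups were separate, and Cx3cr1 rose by 0.86 (SE 0.15, limma adjusted p = 0.0014). The Cck-/- means rose as well, from 4.51 to 7.60 FPKM (0.62, adjusted p = 0.0186). P2ry13, a nucleotide receptor, went from 2.24, 2.65 and 2.03 FPKM to 4.51, 5.23 and 3.84 and rose by 0.74. Sall1, the transcription factor that sets microglial identity, went from 2.38, 2.35 and 2.06 FPKM to 3.65, 4.65 and 3.32 and rose by 0.57. Laptm5, a lysosomal membrane protein, rose by 0.74, Ctss, a cysteine protease, by 0.88, Trem2, the lipid receptor of microglia, by 0.80 and Csf1r, the receptor on which they depend, by 0.69. The call of Trem2 was lost without week 12 replicate 3 or week 28 replicate 2, with an adjusted p up to 0.0743. Siglech, Fcrls, C1qb and Ly86 were not called. The count was 9 without week 12 replicate 3, 13 without week 28 replicate 1 and 9 without week 28 replicate 2.

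Of 26 genes of activated microglia 8 (30.8%, against 10.2% of all genes) were called higher and 0 lower, and the list's median was 0.45. In Cck-/- libraries 2 (7.69%, against 4.03% of all genes) were called higher, with a median of 0.19. Only 1 of the 26 had an unadjusted interaction p under 0.05 (limma). Clec7a, a glucan receptor of activated cells, went from 1.31, 1.17 and 0.700 FPKM to 2.01, 2.98 and 1.70 and rose by 0.64 (SE 0.13, limma adjusted p = 0.0036). Csf1, a growth factor of microglia, went from 6.33, 6.39 and 5.34 FPKM to 9.92, 9.90 and 8.15 and rose by 0.56. Cd68, a lysosomal glycoprotein, rose by 0.82. Apoe, Spp1, Cst7, Lpl and Gpnmb, which mark the state described around amyloid and dying neurons, were not called, and Spp1 ranged from 18.3 to 51.5 FPKM at week 12 and from 22.4 to 34.7 at week 28. This count was 3 without week 12 replicate 3, 5 without week 28 replicate 1, 3 without week 28 replicate 2 and 12 without week 28 replicate 3.

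Complement genes rose as well. Of 13 genes 7 (53.8%, against 10.2% of all genes) were called higher and 0 lower: C4b, C3, C1qa, C1qc, C2, Serping1 and Clu. The list's median was 0.56. In Cck-/- libraries 2 (15.4%, against 4.03% of all genes) were called higher, with a median of 0.44. Only 1 of the 13 had an unadjusted interaction p under 0.05 (limma). C4b, which encodes complement component C4, read 5.92, 5.71 and 3.08 FPKM at week 12 against 13.4, 20.3 and 12.1 at week 28. The groups did not overlap, and C4b rose by 1.47 (SE 0.23, limma adjusted p = 0.00089); in Cck-/- libraries it rose by 0.98 (2.68 to 6.41 FPKM, adjusted p = 0.0186). Its copy C4a was at 0.162 FPKM or less in the 6 libraries. C3, on which the pathways of complement converge, went from 0.561, 0.491 and 0.221 FPKM to 2.27, 2.23 and 1.27 and rose by 1.03, against 0.307 and 0.672 FPKM in Cck-/- (0.33, adjusted p = 0.234). The list's count was 2 without week 12 replicate 3, 2 without week 28 replicate 1 and 2 without week 28 replicate 2; C4b and C3 were called in each. Of 28 genes of class I presentation and the interferon response only Irf1 was called, higher by 0.39, although the list's median was 0.33, and that call was lost without week 12 replicate 3 or week 28 replicate 1 or 2 (adjusted p up to 0.0989, limma).

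A few oligodendrocyte genes rose. Of 30 genes of myelin and mature oligodendrocytes 5 were called higher and 0 lower, 16.7% against 10.2% of all genes higher: Il33, Myrf, Aspa, Ermn and Sox10. Il33, an alarmin cytokine that oligodendrocytes and astrocytes hold in the nucleus, went from 19.4, 22.7 and 15.6 FPKM to 35.3, 37.2 and 28.3, with no overlap, and rose by 0.78 (SE 0.14, limma adjusted p = 0.00185). It rose by 0.71 in Cck-/- libraries too. Myrf, the regulator of myelin genes, rose by 0.45. Mbp, a main myelin protein gene, was not called. Of 22 genes of precursors and new oligodendrocytes 4 (18.2%) were called higher, Vcan, Olig2, Itpr2 and Cspg4, with Vcan going from 5.79, 3.47 and 4.54 FPKM to 7.77, 8.29 and 6.70 (0.63). The myelin count was 2 without week 12 replicate 3, 2 without week 28 replicate 1 and 2 without week 28 replicate 2. The precursor count was 2 without any of these 3 libraries or week 12 replicate 2, and 6 without either of the others.

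Of 33 basement membrane and extracellular matrix genes 7 were called higher and 1 lower, 21.2% and 3.03% against 10.2% and 13.7% of all genes. Bcan, the perineuronal net proteoglycan brevican, went from 66.5, 75.1 and 70.5 FPKM to 98.1, 93.2 and 97.1, tight groups that did not overlap, and rose by 0.44 (SE 0.05, limma adjusted p = 9.29e-05). In Cck-/- libraries it rose by 0.38. Col6a1, a collagen subunit, went from 2.89, 3.55 and 2.84 FPKM to 5.59, 6.22 and 5.64 and rose by 0.74, and by 0.67 in Cck-/- libraries. Hapln4, the link protein of perisynaptic nets in the cerebellum, fell by 0.30. The higher count was 2 without week 12 replicate 3, 3 without week 28 replicate 1 and 2 without week 28 replicate 2. In the same direction, the mean log2 level of 16 meningeal and fibroblast genes was 4.22, 4.11 and 3.75 at week 12 and 4.64, 4.61 and 4.18 at week 28. Of these 3 (18.8%, against 10.2% of all genes) were called higher, among them Col1a1 and Fmod. The part of meningeal tissue in these values was not tested. Of 26 cholesterol synthesis and uptake genes 5 (19.2%, against 13.7% of all genes) were called lower, Idi1, Stard4, Ebp, Cyp51 and Fdps. The 1 called higher was Abca1, the cholesterol exporter (3.85%, against 10.2%). The call of Abca1 was lost when any 1 library except week 12 replicate 1 was left out (adjusted p up to 0.22, limma). Those 5 became 2 without week 12 replicate 2, 3 without week 12 replicate 3 and 3 without week 28 replicate 2, and the meningeal count became 1 without week 12 replicate 2 and 0 without week 12 replicate 3 or week 28 replicate 1 or 2.

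**Figure D3:**
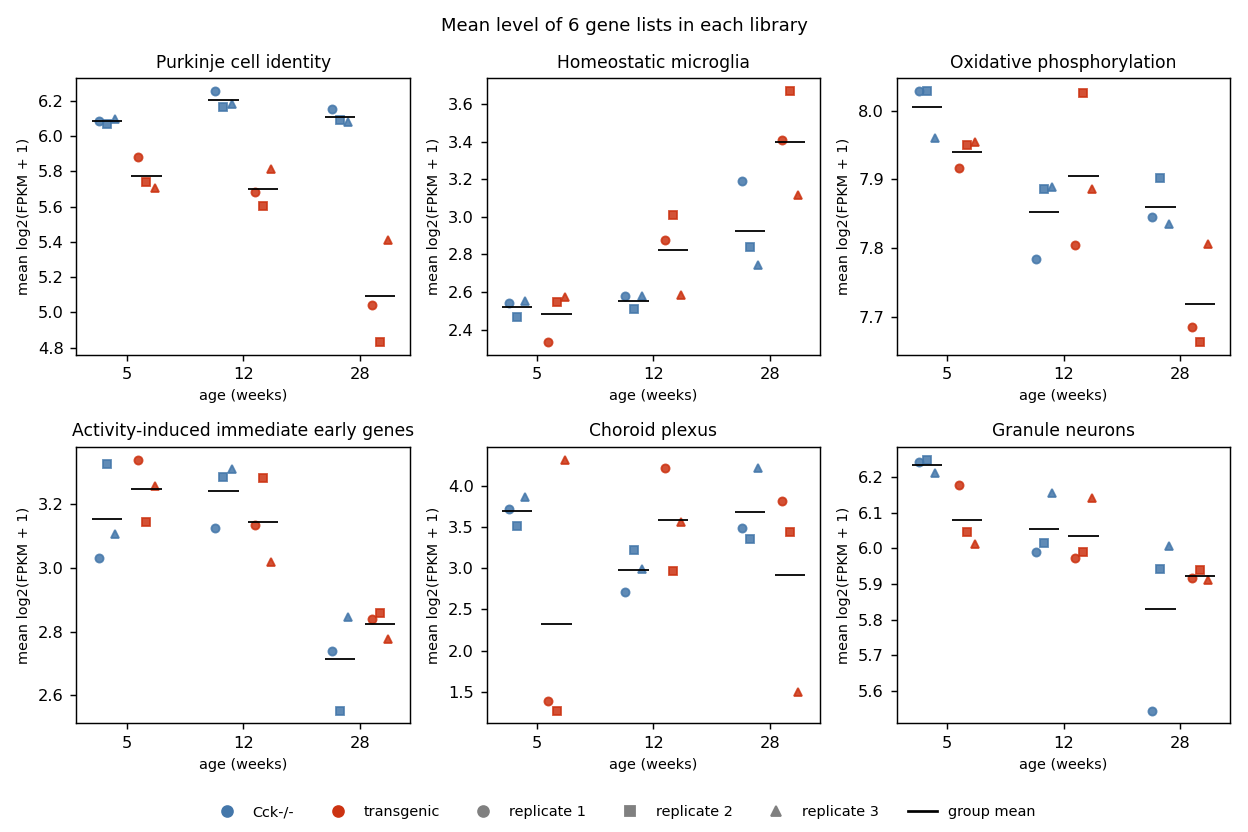
Mean log2(FPKM + 1) over the tested members of 6 gene lists in each of the 18 libraries by age (x axis, weeks) and genotype; the marker gives the replicate and the black line the group mean, and y axes do not start at 0. The Purkinje list is lowest in the 3 transgenic week 28 libraries (4.83 to 5.41), and the immediate early list is low at week 28 in both genotypes. In choroid plexus genes transgenic week 28 replicate 3 (triangle) lies at 1.50. Transgenic week 5 replicates 1 and 2 lie lower still, at 1.38 and 1.27.

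Part of the respiratory chain fell. Of 39 genes of oxidative phosphorylation 17 (43.6%, against 13.7% of all genes) were called lower and 0 higher, with a median log2 change of -0.18. In Cck-/- libraries 1 was called higher and 0 lower, against 4.03% and 5.62% of all genes, with a median of -0.01. An unadjusted interaction p under 0.05 (limma) was found for 17 of the 39, against 10.1% of all genes. Cox7c, a subunit of cytochrome c oxidase, went from 545, 640 and 570 FPKM to 381, 367 and 427, without overlap, and fell by 0.58 (SE 0.07, limma adjusted p = 0.000194). Ndufa1, a subunit of complex I, went from 181, 217 and 183 FPKM to 147, 139 and 153 and fell by 0.40. Atp5o of the ATP synthase fell by 0.32 and Sdhd of complex II by 0.27. The list's mean log2 level was 7.80, 8.03 and 7.89 at week 12 and 7.69, 7.66 and 7.81 at week 28, so the groups overlapped narrowly, and week 12 replicate 2, the library with both Xist and Ddx3y, was the highest. The count was 8 without that library, 9 without week 28 replicate 2, 26 without week 28 replicate 3, 2 without the libraries that held both Xist and Y-linked transcripts, and 6 lower with 2 higher after quantile normalization. Of 44 cytosolic ribosomal protein genes only Rpl18 was called, lower by 0.25, and not without week 12 replicate 2 or week 28 replicate 1 (adjusted p up to 0.0644, limma).

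In the mTORC1 pathway 12 of 46 genes were called lower and 3 higher. Akt2, a kinase upstream of the complex, went from 42.6, 53.6 and 51.1 FPKM to 33.1, 32.9 and 38.4, without overlap, and fell by 0.48 (SE 0.08, limma adjusted p = 0.00107). Sesn1, an inhibitor of mTORC1 that senses leucine, went from 55.1, 60.4 and 58.7 FPKM to 44.6, 41.1 and 47.5 and fell by 0.38. Lower were also Rragd, Rraga, Rheb, Lamtor1, Lamtor3 and Lamtor5, which hold or activate the complex at the lysosome, with Eif4ebp2, Irs2, Pik3ca and Akt1s1, an inhibitory subunit of the complex. The calls of Rheb, Pik3ca and Lamtor1 were lost without 4, 4 and 1 of the libraries, with adjusted p up to 0.0985, 0.179 and 0.0734 (limma). The lower share was 26.1% against 13.7% of all genes and the higher share 6.52% against 10.2%. The 3 that rose were Tsc1 and Tsc2, the partners of the inhibitory TSC complex, by 0.24 and 0.23, and Nprl3, a part of the GATOR1 complex, by 0.30. Mtor itself was at 13.1 to 14.8 FPKM at week 12 and 14.2 to 14.6 at week 28 and was not called, nor was Rptor. In Cck-/- libraries 7 (15.2%, against 5.62% of all genes) were called lower and 1 higher, Nprl3, at 0.40. The list's median log2 change was -0.074 in transgenic and -0.071 in Cck-/- libraries. RNA levels do not measure the activity of the kinase.

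Of 24 genes of the BCL2 family and apoptosis 2 were called higher and 6 lower, 8.33% and 25.0% against 10.2% and 13.7% of all genes. Hrk, a neuronal killer protein that binds BCL2 proteins, read 7.62, 5.54 and 4.32 FPKM at week 12 against 13.4, 10.5 and 9.66 at week 28. The groups did not overlap, and Hrk rose by 0.85 (SE 0.18, limma adjusted p = 0.00456), against 2.40 and 2.33 FPKM in Cck-/- and an unadjusted interaction p of 0.00371. Bcl2l1, the survival factor BCL-X, went from 57.3, 64.1 and 62.8 FPKM to 42.6, 44.1 and 47.6 and fell by 0.45; in Cck-/- libraries it fell by 0.29. The others lower were Bok, Cycs, Bax, Bcl2l2 and Diablo, and the other higher was Bid, whose call was lost without any library except week 28 replicate 3 (adjusted p up to 0.158, limma). No caspase on the list was called. Of 15 targets of p53 and DNA damage 2 were called lower, Cdkn1a and Bax, and 0 higher. That lower share, 13.3%, was near the 13.7% of all genes. Both of these calls were lost without week 12 replicate 2 and without week 28 replicate 1, with adjusted p up to 0.101 for Cdkn1a and 0.172 for Bax (limma). The count of 6 was 4 without week 12 replicate 2 or 3 or week 28 replicate 1 or 2.

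Cytosolic heat-shock chaperones fell in both genotypes. Of 26 genes 11 were called lower and 1 higher in transgenic libraries, 42.3% and 3.85% against 13.7% and 10.2% of all genes. In Cck-/- libraries 7 (26.9%, against 5.62% of all genes) were called lower and 0 higher. Hsph1, an exchange factor of HSP70, went from 38.0, 38.1 and 37.3 FPKM to 26.6, 29.6 and 29.5, a clear separation, and fell by 0.39 (SE 0.05, limma adjusted p = 0.000259) and by 0.31 in Cck-/- libraries. Ahsa1, a cofactor of HSP90, fell by 0.37, and St13 and Dnaja1 by 0.29 and 0.25. Of the 31 genes of the unfolded protein and integrated stress response only Slc7a11 was called, higher by 0.72; its week 28 replicate 3 value, 8.38 FPKM, lay just below week 12 replicate 1 at 8.48, and the call was lost without 4 of the 6 libraries (adjusted p up to 0.174, limma). The chaperone count was 6 without week 12 replicate 2 and 6 without week 28 replicate 1.

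Immediate early genes, which neurons switch on within minutes of activity, fell between the 2 ages in both genotypes. Of 26 genes 11 were called lower and 3 higher in transgenic libraries, 42.3% and 11.5% against 13.7% and 10.2% of all genes. In Cck-/- libraries 12 were called lower and 2 higher, 46.2% and 7.69% against 5.62% and 4.03% of all genes. Nr4a3, an orphan nuclear receptor, read 5.55, 7.16 and 5.24 FPKM at week 12 against 0.598, 2.26 and 1.28 at week 28. The groups were far apart, and Nr4a3 fell by 1.60 (SE 0.22, limma adjusted p = 0.000349); the Cck-/- means were 8.12 and 1.14 FPKM (-2.08). Its relative Nr4a2 stood at 5.61, 6.05 and 5.48 FPKM and then at 1.78, 2.31 and 1.63, a fall of 1.21 (SE 0.15, adjusted p = 0.000192) against a Cck-/- change of -1.72. All 6 week 28 libraries of the series lay below all 12 younger ones for both genes.

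Nr4a1 fell by 0.91, a call lost without week 12 replicate 2 or week 28 replicate 1 (adjusted p up to 0.062, limma). Klf2, a factor also of endothelium, fell by 0.97, Egr4 by 0.93, Bdnf, the neurotrophin, by 0.74 and Dusp6, a phosphatase of ERK, by 0.74. Fosl2, Trib1, Homer1 and Per1 were the other 4. Ier5, Gadd45b and Cyr61 were called higher, by 0.39, 0.47 and 0.55, a share near that of all genes. The call of Cyr61 was lost without week 28 replicate 2 (adjusted p = 0.053, limma). The best known members were not called: Fos ranged from 8.52 to 21.3 FPKM at week 12 and from 6.99 to 10.1 at week 28 (adjusted p = 0.26), and Arc and Egr1 differed by 0.22 and 0.28 in the other direction. For 9 of the 11 genes that fell, replicate 2 was the week 28 library nearest to week 12, unlike the Purkinje genes. Without the 3 transgenic libraries that stood apart 4 of the list were called lower.

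The promoters of the 3 Nr4a genes are shown because they fell together in both genotypes and hold several copies of TGACG, the half-site of the cyclic AMP response element. They are the same kind of RefSeq window on GRCm38.p6, for Nr4a1 chr15:101266596-101266895 (plus strand), for Nr4a2 chr2:57123954-57124253 (minus strand) and for Nr4a3 chr4:48045055-48045354 (plus strand), with TGACG and its reverse complement in capitals.
Nr4a1: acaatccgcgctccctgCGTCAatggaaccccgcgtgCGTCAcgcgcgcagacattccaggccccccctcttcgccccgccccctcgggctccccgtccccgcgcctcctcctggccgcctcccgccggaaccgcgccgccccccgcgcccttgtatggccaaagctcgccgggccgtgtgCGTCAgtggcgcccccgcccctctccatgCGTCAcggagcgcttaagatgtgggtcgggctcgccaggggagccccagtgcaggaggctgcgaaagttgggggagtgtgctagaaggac
Nr4a2: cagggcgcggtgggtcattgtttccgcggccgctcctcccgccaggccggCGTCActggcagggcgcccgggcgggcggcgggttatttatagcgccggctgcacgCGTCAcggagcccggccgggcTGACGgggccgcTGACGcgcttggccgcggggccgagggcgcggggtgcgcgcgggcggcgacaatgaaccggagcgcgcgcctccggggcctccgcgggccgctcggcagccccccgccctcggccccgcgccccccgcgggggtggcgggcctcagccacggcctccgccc
Nr4a3: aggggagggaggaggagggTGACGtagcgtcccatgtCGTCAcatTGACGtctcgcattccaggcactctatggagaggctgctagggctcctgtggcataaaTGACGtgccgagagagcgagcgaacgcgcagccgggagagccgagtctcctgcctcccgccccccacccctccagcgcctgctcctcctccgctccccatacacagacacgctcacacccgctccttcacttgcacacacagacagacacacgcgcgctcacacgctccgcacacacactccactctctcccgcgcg
Each holds 4 matches. Of the 11 genes that fell 10 had a listed promoter, and 7 of these held the letters on either strand, Nr4a1, Nr4a2, Nr4a3, Egr4, Klf2, Per1 and Homer1, against 20.8% of all promoters. Among the called Purkinje genes the number was 4 of 20. Called genes again count once each, and the promoters of all genes do not.

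Targets of Capicua, the repressor that binds ataxin-1, include several of the same feedback genes of ERK signalling. Of 20 genes 4 were called lower, Spry4, Dusp4, Dusp6 and Spred2, and 0 higher, against 13.7% of all genes called lower. In Cck-/- libraries 5 of the 20 were called lower, against 5.62% of all genes. The list's median log2 change was -0.22, and -0.23 in Cck-/- libraries. Its mean log2 level was 3.64 to 3.75 at week 12 and 3.38 to 3.50 at week 28, without overlap. In Cck-/- libraries the level was 3.78 to 3.86 and then 3.41 to 3.48, so the list fell in both genotypes. Spry4, an inhibitor of growth factor signals, went from 6.85, 5.39 and 4.28 FPKM to 2.10, 2.96 and 2.05, without overlap, and fell by 0.94 (SE 0.16, limma adjusted p = 0.00128), against -1.25 in Cck-/-. Dusp4 fell by 0.87, against -0.99. Etv1, Etv4 and Etv5, the best established targets, were not called. Of the 20 genes 1 had an unadjusted interaction p under 0.05. The transgenic count was 6 without week 12 replicate 1, 7 without week 28 replicate 3, and 2 without the 3 transgenic libraries that stood apart.

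Clock genes were called in both directions, again in both genotypes. Of 22 genes 8 were called higher and 4 lower in transgenic libraries, 36.4% and 18.2% against 10.2% and 13.7% of all genes. The lower share was thus near that of all genes. In Cck-/- libraries 4 were called higher and 6 lower, 18.2% and 27.3% against 4.03% and 5.62% of all genes. Ciart, a repressor of the clock, went from 6.27, 4.95 and 5.74 FPKM to 9.06, 8.49 and 8.98, without overlap, and rose by 0.57 (SE 0.08, limma adjusted p = 0.000492). Nr1d1, the repressor REV-ERB alpha, went from 50.6, 48.6 and 48.1 FPKM to 64.0, 59.0 and 65.7 and rose by 0.35. Nfil3, which represses genes that REV-ERB lets rise, fell by 0.65, with Cry1, Per1 and Arntl, the activator BMAL1, lower by 0.43, 0.39 and 0.31. The time of day at which tissue was taken is not in the labels, and cannot be told apart from age where it differed. The clock gene Per1 was lost from the called genes without week 12 replicate 2 or week 28 replicate 1 or 3 (adjusted p up to 0.118, limma). Of 15 glucocorticoid-responsive genes 5 (33.3%, against 13.7% of all genes) were called lower, among them Klf9 and Tsc22d3, and 0 higher. That lower count was 3 without week 12 replicate 2 and 2 without week 28 replicate 1.

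Cck itself was above 0 in every library although all are labelled Cck-/-, and the deposited values do not resolve exons. It read 17.1, 14.4 and 12.8 FPKM at week 12 against 8.35, 6.34 and 4.85 at week 28, 2 groups that did not overlap, and fell by 1.09 (SE 0.23, limma adjusted p = 0.00421). In Cck-/- libraries the means were 13.9 and 4.97 FPKM (-1.35, adjusted p = 0.00259). At week 5 the transgenic mean was 98.1 ± 15.6 FPKM (SD, n = 3) against 20.8 ± 4.51 in Cck-/-, so the genotypes were far apart at that age and close from week 12 on. The receptor gene Cckbr was at 1.20, 1.08 and 0.742 FPKM against 0.922, 1.97 and 1.20 and was not called (adjusted p = 0.492), and Cckar, the receptor in the title of the series, had at most 0.0654 FPKM in these 6 libraries, below the level tested. Of 26 neuropeptide and secretory pathway genes 2 were called higher, Nppb and Pam, and 2 lower, Cck and Pcsk1. Each share was 7.69%, against 10.2% higher and 13.7% lower over all genes. The call of Pcsk1 was lost without week 12 replicate 2 or 3 or week 28 replicate 1 or 3 (adjusted p up to 0.205, limma). Nppb, the B-type natriuretic peptide, went from 0.609, 0.234 and 0.173 FPKM to 1.25, 1.20 and 1.75, rose by 0.85 (SE 0.12, adjusted p = 0.000526), and stayed near 0.05 FPKM in Cck-/- (0.0506 and 0.0459).

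The other large increases with separate groups include Mslnl, a mesothelin-like gene, which went from 1.02, 2.16 and 1.01 FPKM to 3.47, 6.67 and 3.92 (1.24) against Cck-/- means of 0.219 and 0.459. Fam163b went from 5.80, 6.44 and 4.34 FPKM to 16.1, 17.1 and 16.8 (1.45), Ccdc3 from 6.49, 3.65 and 3.22 to 16.8, 11.6 and 8.94 (1.31) and Cda, cytidine deaminase, from 1.38, 2.81 and 2.35 to 9.59, 8.51 and 4.94 (1.43). These genes belonged to no list, and their groups did not overlap. Aebp1, Miat, Tcap, Abca8a, Lyz2, Cpne6 and Gabra2 were called higher by 0.96 to 1.37. The calls of Gabra2, Lyz2 and Cpne6 were lost without 5, 3 and 3 of the 6 libraries, with adjusted p up to 0.122, 0.108 and 0.0931. Among the falls, Mest, an imprinted gene, went from 10.98, 8.33 and 9.82 FPKM to 5.24, 4.40 and 3.63 (-0.98), with -0.75 in Cck-/-, and Hvcn1, a proton channel, from 3.08, 2.77 and 2.39 to 0.718, 1.16 and 0.656 (-1.03), with -1.18. Tmem200b fell by 0.98. Eomes, the marker of unipolar brush cells in the cerebellum, went from 8.15, 12.3 and 8.37 FPKM to 2.99, 3.81 and 3.83 (-1.21), with -1.75 in Cck-/-.

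Some of the largest changes lay in genes that share a locus or near-identical copies, where the assignment of reads can move between names. Snurf rose from 1.57, 1.17 and 0.937 FPKM to 71.2, 64.5 and 67.1 (4.95), with an adjusted p of 0.0215 that rose to at most 0.0632 without any of 4 libraries. Snrpn, which shares its transcription unit, stood at 368, 423 and 413 and then at 266, 283 and 325, and a Cck-/- week 12 library also held only 2.602 of Snurf. Gdf1 went from 5.46, 18.5 and 14.9 FPKM to 1.83, 0.117 and 0.213 (-3.01) and Cers1 of the same locus from 17.6, 8.41 and 10.6 to 19.2, 19.9 and 25.0. Rnaset2a was lower (-1.64) where its copy Rnaset2b was higher, 2.18, 4.80 and 2.61 FPKM against 6.62, 6.61 and 4.82. Btg3, which was called higher by 1.51, shares its locus with Gm7334, and Iltifb, which was called lower by 0.97, has the copy Il22, at 8.67, 8.67 and 9.49 FPKM against 5.31, 3.64 and 7.05. These pairs are reported as uncertain.

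**Figure D4:**
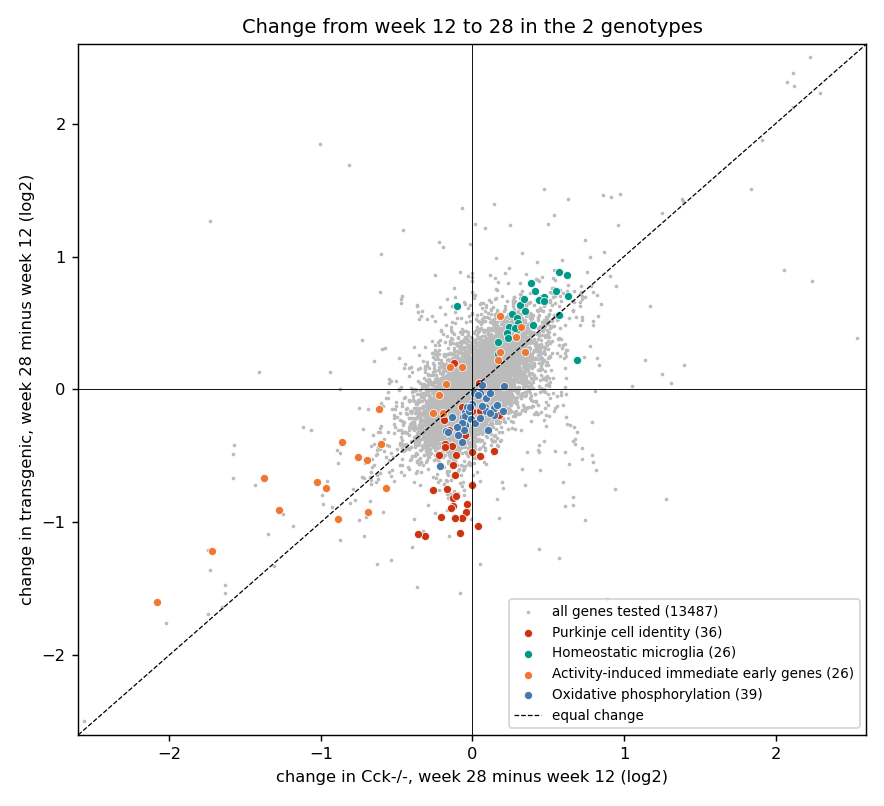
Log2 change from week 12 to 28 in Cck-/- (x axis) and in transgenic cerebellum (y axis) for all genes tested, with 4 lists in colour and the line of equal change dashed; 7 genes lie beyond the axes. Purkinje genes have a median of -0.11 on the x axis and lie down to -1.10 on the y axis, and many immediate early genes lie low on both axes.

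A set of genes separated week 28 from the younger ages in both genotypes. All 6 week 28 libraries lay above all 12 younger libraries for 364 genes and below them for 612, against 217 and 138 for week 5 and 7 and 2 for week 12. With a gap of more than 0.5 (log2) there were 12 genes above and 12 below at week 28, against 2 and 2 at week 5 and 0 at week 12, a rule chosen after the values were seen. Srsf4, a splicing factor, stood at 28.3, 29.8 and 30.5 FPKM in the transgenic week 12 libraries and at 8.24, 8.25 and 8.93 at week 28 (-1.69), with Cck-/- means of 30.1 and 8.31. Gm12992, a predicted gene that shares the locus of Srsf4 at chr4:131873639-131920029 (mm10), went from 1.36, 0.992 and 1.43 to 9.80, 10.2 and 10.6. Nox1, a NADPH oxidase whose locus overlaps Cstf2, had 0.0116 FPKM or less at week 12 against 4.18, 3.74 and 3.78 at week 28, and Adamts13, a protease of von Willebrand factor, at 0.0169 or less and then at 3.08, 3.03 and 2.11. Cpne8 went from 44.3, 42.8 and 38.8 FPKM to 6.03, 5.60 and 5.93 (-2.65), the long RNA Neat1 from 34.5, 35.8 and 31.2 to 88.0, 88.9 and 68.3 (1.24), and Dynlt1a, one of several near copies, from 2.39, 1.70 and 2.03 to 11.7, 13.2 and 14.8.

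Of the 24 genes 13 (54.2%) share their locus in the deposited table with another gene, against 17.5% of all genes tested, and 16 of the 23 found in GENCODE M21 overlap a gene on the opposite strand, against 45.6%. The ribosomal RNA precursor Rn45s fell with age too, from 871, 993 and 930 FPKM to 250, 238 and 346, and Lars2 from 143, 148 and 146 to 44.0, 46.5 and 67.8. Both falls were of similar size in Cck-/- libraries (-2.02 and -1.63). The labels give no batch, and anything shared by the week 28 libraries, such as their handling, cannot be told apart from age.

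**Figure D5:**
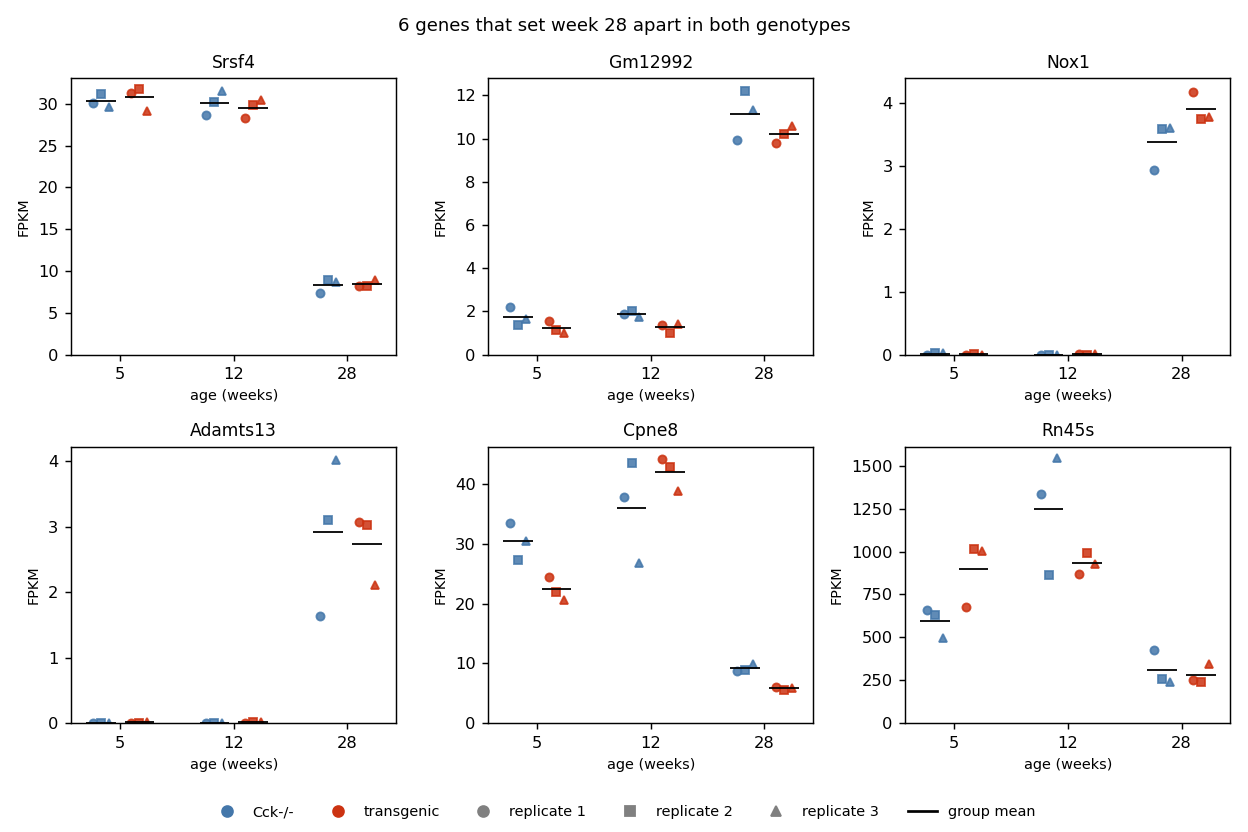
FPKM of 6 genes in each of the 18 libraries by age (x axis, weeks) and genotype, with group means as black lines and y axes starting at 0. All 6 week 28 libraries lie on one side of the 12 younger ones in every panel; Srsf4 lies between 28.3 and 31.8 before week 28 and between 7.33 and 8.93 at week 28.

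The 8 genes with the smallest interaction p show what differed most between the genotypes in their change with age, none with an adjusted p under 0.354 (limma). Sema6d, a guidance molecule, went from 40.5, 37.6 and 36.5 FPKM to 50.1, 52.5 and 44.3 in transgenic libraries (0.35) and from 34.4 to 33.4 as Cck-/- means (interaction 0.39, SE 0.07, unadjusted p = 9.79e-05). Ctxn3 went from 22.8, 29.5 and 31.8 to 12.3, 11.1 and 18.9 (-0.97), against Cck-/- means of 33.5 and 38.2, an interaction of -1.14. Nppb, described above, had an interaction of 0.86, and Map4k5 one of 0.27. Eps8l2, Pebp1 (a RAF kinase inhibitor), Sepw1 (a selenoprotein) and Lgi4 fell in the transgenic libraries by 0.39, 0.27, 0.38 and 0.38 while their Cck-/- changes were 0.15, 0.02, 0.07 and 0.00. In all 8 the transgenic groups did not overlap.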

How the data were processed

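The FPKM values were deposited by the authors, 1 per gene and library, for cerebellar RNA extracted with TRIzol and an RNeasy kit and prepared with an Illumina TruSeq RNA kit, per the labels' protocols. The submitters' processing notes name TopHat2 2.0.11, Cufflinks 2.2.1 and the mm10 build. FPKM is already scaled for library and length, holds no counts, and no count model was used, so depth and counting error are unknown. Whether counting used strand is not given in the sources used here, so genes that overlap on opposite strands may share reads.

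From the deposited FPKM, log2(FPKM + 1) was fitted in limma 3.58.1 (R 4.3.3) with 6 group means over all 18 libraries, moderated variances with a trend on the mean, two-sided tests and Benjamini-Hochberg adjustment over 13487 genes. There were 3 comparisons, the change in each genotype and their difference. Script checks were run on simulated data. Promoter windows and motif counts were computed with Python 3.11.15 from RefSeq, and strand overlaps from GENCODE M21.

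Named genes were the 20 largest called changes in each direction with groups that did not overlap, the 8 with the smallest interaction p, up to 4 members with the smallest p of each list, and Cck, Atxn1, Cckar, Cckbr and Pcp2, leaving out predicted, clone-named, small RNA, Xist and Y-linked genes. All other genes were named after their values were seen, AF357426, Gm12992 and further list members among them. The members and lists were chosen with earlier results of these data known. Alternatives covered the pseudocount, the filter on low values, scaling, the variance model, library weights, the samples in the fit, a replicate block, each library left out and libraries that stood apart. Libraries of week 5 entered only the variance and levels. Replicate numbers carry no stated pairing. Some list members are counted but not reported here by name.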

Additional observations from a re-analysis of the deposited data

How the results depend on the processing

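The transgenic count of 3216 genes became 5128 with library weights, 1368 from the compared groups alone, 984 after leaving out libraries that held Xist beside Y-linked transcripts and 1402 without the 3 transgenic libraries that stood apart, and ranged from 1756 to 3546 when each of the 6 transgenic libraries of the 2 ages was left out in turn. The Cck-/- count of 1301 became 4244 with library weights and 140 with only its own groups, and ranged from 635 to 1301 over its own 6 libraries. The interaction count of 0 became 2344 with library weights and 135 without the 3 that stood apart. Without transgenic week 28 replicate 3, the library of weeks 12 and 28 lowest in choroid plexus genes, it was 149. Over single libraries it ranged from 0 to 149. With the replicate number as a block the 3 counts were 3202, 1200 and 0, which changed none of them by over 1.5 times. Deviations of same-numbered transgenic libraries of the 2 ages correlated at 0.271, 0.0697 and 0.278, and those with different numbers at -0.438 to 0.253. Over all pairs of groups the mean correlation was -0.012 for the same number and 0.005 for different numbers. With no pairing stated either, the numbers were not taken as pairs. The covariate on Xist and the libraries that stood apart were chosen after seeing the data. None of the 144 genes named by the rule reversed direction under the alternatives, of which the filter on a mean FPKM of at least 5 tested 112 of them. Why calls were lost was not tested, except that fits with fewer libraries have less information by construction. Read depth, animal, sex, time of day and any batch are not given by the labels, and limit every comparison here.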
